A study of Mus musculus with 4 samples.

Results

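In cells given estradiol (E2), 289 regions of open chromatin had a lower DNase-seq signal, relative to other regions, than in cells without it, both when E2 was given alone and when it was added to dexamethasone (Dex). They were open before any hormone was added and stayed above the authors' detection threshold in all conditions. The regions were chosen by their own measured densities. The 4 deposited lists were merged into 103288 regions, of which 20687 were present in every list, here called shared regions. The highest maximum tag density of a shared region in a library was divided by that library's median over the shared regions, which gives a relative density of 1 at the median. An E2-lower region is a shared region at least 1.5-fold lower both in E2 over untreated cells and in Dex+E2 over Dex, and 289 of the 20687 (1.40%) met this rule. The values in these 2 ratios are therefore a description of how the regions were picked and carry no test.

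The cells were 7438 cells, a mouse mammary line with tagged forms of both steroid receptors, GFP-GR for the glucocorticoid and Cherry-ER for the estrogen receptor, driven by tetracycline-regulated promoters. Both tagged receptors were switched on in every group, untreated cells included, by withdrawal of tetracycline 24 h before hormone, in charcoal-dextran serum. The groups were untreated cells, cells given Dex at 100 nM, cells given E2 at 100 nM, and cells given both at 100 nM each, with hormone present for 30 min and 1 library per group. With 1 library each, a difference between 2 libraries has no replicate check and cannot be assigned to a hormone, and the results hold for receptors expressed in this way in 1 line.

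DNase I cuts DNA where nucleosomes are displaced or loosened, so a dense cluster of cuts marks a promoter, enhancer or other regulatory element held open by bound factors. ER and GR are nuclear receptors: each binds DNA once its steroid ligand is bound, ER as a dimer at estrogen response elements and GR at glucocorticoid response elements, and each can also be held at DNA by other factors such as AP-1. Both recruit shared coactivators and chromatin remodellers. Sites can lose accessibility as well as gain it when a receptor is activated, and the E2-lower regions are those where the library with E2 was the lower one. Positions are in mm9 as deposited, without conversion. Genes at the regions and their base sequences were not analysed here, since the reference tables at hand are of another build.

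At 6 regions the drop reached 2-fold in both comparisons, a size met by 0.029% of the shared regions. Densities are the deposited maximum tag densities. Their medians over the shared regions were 30.1 untreated, 14.7 with Dex, 10.2 with E2 and 15.4 with both hormones. All ratios are of relative densities, after division by these medians. The first, chr6:29228370-29229399, stood at 47.2 untreated, 22.5 with Dex, 6.20 with E2 and 8.85 with both hormones. Its relative density after E2 was 0.388 of the untreated one (counting interval 0.256 to 0.569), and that after Dex+E2 was 0.374 of the one after Dex (0.250 to 0.550). In relative density, untreated and Dex cells were thus alike at this region (ratio 0.978), and so were both libraries with E2 (0.944). These intervals are exact 95% intervals on the tags at the summit. They cover counting error only and do not correct for the choice of low ratios. Over the 6 regions their upper limits ran from 0.524 to 0.716 in E2 over untreated and from 0.550 to 0.786 in Dex+E2 over Dex. At none of the 6 did an interval lie wholly past 2-fold.

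At chr2:130854949-130855915 the densities were 59.2 untreated, 34.5 with Dex, 7.40 with E2 and 16.1 with both hormones, with ratios of 0.369 and 0.444 in the 2 E2 comparisons. At chr3:145347730-145348749 they were 46.4, 26.4, 6.8 and 13.2 in that order, with ratios of 0.432 and 0.474. Both regions were lowest after E2 alone, and the addition of Dex to E2 went with a relative density 1.44 and 1.28 times as high.

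On chromosome 8, chr8:67151308-67152265 had densities of 42.6 untreated, 18.1 with Dex, 7.0 with E2 and 8.85 with both hormones (ratios 0.485 and 0.465). The region chr8:117857678-117858582 had 39.8, 13.5, 6.60 and 7.03 (0.489 and 0.497). Here the Dex library was below the untreated one too, at 0.693 of its relative density, and Dex+E2 stood at 0.345 of the untreated cells. The last of the 6, chr10:16264465-16266245, was the strongest of them, with 86.2 untreated, 38.9 with Dex, 13.4 with E2 and 20.4 with both hormones (0.459 and 0.499).

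**Figure D1:**
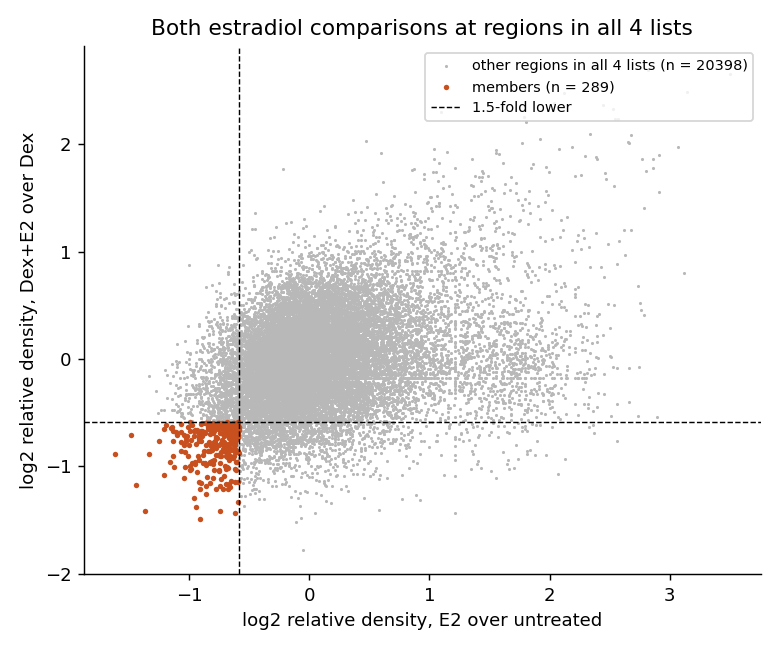
Each point is 1 of the 20687 regions in all 4 lists, placed by its log2 ratio of relative density in E2 over untreated (x axis) and in Dex+E2 over Dex (y axis); dashed lines mark the 1.5-fold limit that chose the 289 orange members. The members fill the lower left corner without a gap to the other regions, and their lowest log2 ratios are -1.62 and -1.49.

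The next 14 regions by the smaller of their drops were close to 2-fold, with E2 over untreated between 0.448 and 0.533 and Dex+E2 over Dex between 0.356 and 0.520. Among them chr12:76408633-76410193 had densities of 57.6 untreated, 36.7 with Dex, 9.80 with E2 and 19.3 with both hormones. The densest, chr5:124129349-124130484, had 97.2, 46.0, 16.6 and 23.8 in that order. The weakest, chr16:65999437-66000295, had 27.0, 15.9, 4.60 and 8.17, so that its E2 summit rested on 23 tags.

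Several of these 14 had like relative densities in untreated and Dex cells, though their deposited densities differed as the library medians do. For chr17:6172062-6174080 the densities were 70.9 untreated, 33.5 with Dex, 12.4 with E2 and 17.9 with both hormones (Dex over untreated 0.969). For chr5:54343192-54345082 they were 28.6, 13.5, 5.00 and 7.26 (0.966), and for chr3:141995156-141996278 they were 34.9, 15.7, 6.20 and 7.94 (0.919). Others had a somewhat higher relative density with Dex than in untreated cells.

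Among these was chr16:96312854-96314572, with 63.3 untreated, 36.0 with Dex, 9.60 with E2 and 19.5 with both hormones (Dex over untreated 1.17). The region chr16:90829933-90831919 had 32.4, 17.9, 5.80 and 9.76 (1.13), and chr5:101645627-101646767 had 33.4, 20.1, 6.0 and 9.53 (1.23). A lower ratio in the comparison with Dex marked the next regions.

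At chr7:103965021-103967083 the densities were 54.1 untreated, 33.3 with Dex, 9.40 with E2 and 14.3 with both hormones (Dex+E2 over Dex 0.409). At chr6:54152947-54154523 they were 32.9, 26.4, 5.80 and 10.7 (0.384), and at chr7:116719812-116720886 they were 45.4, 26.7, 8.20 and 9.98 (0.356). These 3 were lower in the Dex+E2 comparison than in E2 over untreated, where they stood at 0.513, 0.520 and 0.533.

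The remaining members of the leading 20 differed in their Dex values. The region chr10:58431959-58432703 was low in every hormone library, with 34.4 untreated, 11.5 with Dex, 6.20 with E2 and 5.22 with both hormones. In contrast chr3:93372214-93373328 was as dense after Dex (46.8) as untreated (46.4), with 8.0 after E2 and 25.2 after Dex+E2, which relative to the medians is 2.06-fold higher in Dex over untreated and 2.08-fold in Dex+E2 over E2. Over the leading 20, Dex over untreated ranged from 0.685 to 2.06.

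**Figure D2:**
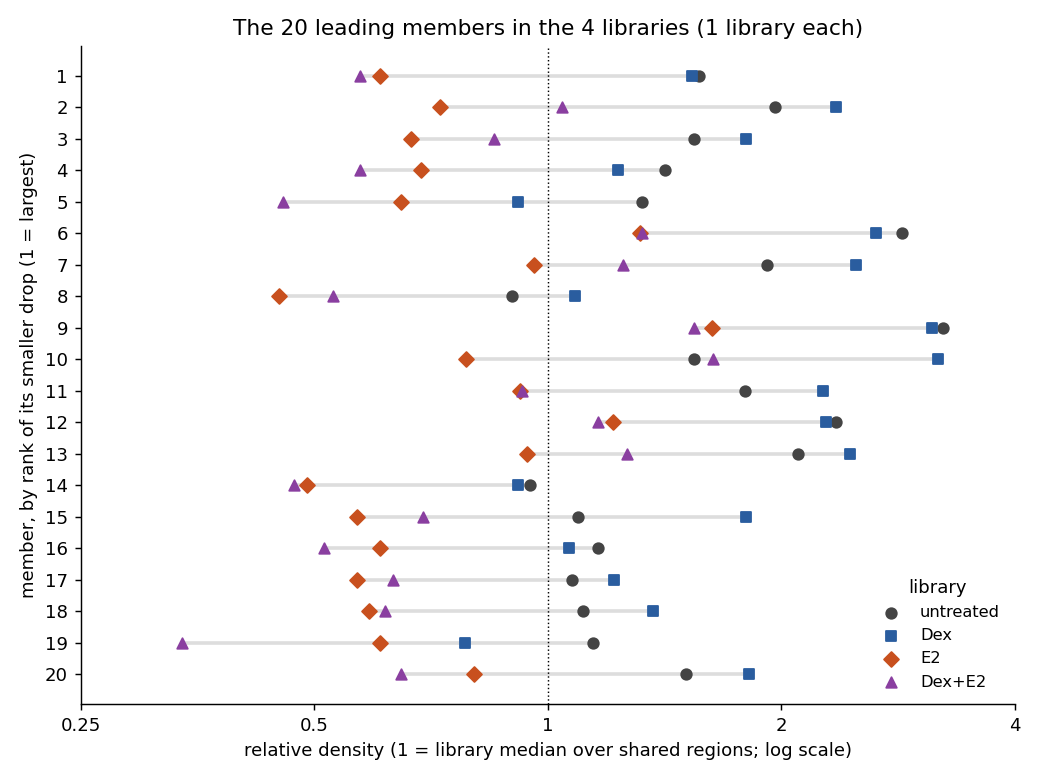
Relative density (x axis, log scale, 1 is the library median over shared regions) of the 20 leading members, 1 row each by rank, in the untreated, Dex, E2 and Dex+E2 libraries; the grey bar spans the 4 values. In each row the E2 point lies left of the untreated point and the Dex+E2 point left of the Dex point, as the rule demands, while the untreated and Dex points often lie close together.

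Over the 289 regions the untreated density ranged from 16.6 through a median of 43.4 to 15878. The density after Dex ranged from 6.86 through 23.5 to 7501, that after E2 from 3.0 through 8.60 to 3270, and that after Dex+E2 from 4.54 through 13.8 to 3413. Over all shared regions the medians were 30.1, 14.7, 10.2 and 15.4. By their medians the E2-lower regions were above the typical shared region without E2 and below it with E2, which the rule favours. The third quartile of their relative density was 1.16 with E2 and 1.35 with Dex+E2, so many stood above the typical region there too.

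The median ratio was 0.600 for E2 over untreated, with a lowest value of 0.326, and 0.593 for Dex+E2 over Dex, with a lowest value of 0.356. The largest drop with E2 alone was at chr13:111713802-111714975, which had 90.5 untreated, 23.5 with Dex, 10.00 with E2 and 13.4 with both hormones. Each comparison taken alone called more regions: 1273 shared regions (6.15%) were 1.5-fold lower in E2 over untreated and 1571 (7.59%) in Dex+E2 over Dex. In the upward direction 681 regions (3.29%) passed both limits, more than the 289 in the downward one.

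The counting interval of the ratio lay below 1 at 280 members for E2 over untreated and at 278 for Dex+E2 over Dex, and below 1 in both at 271. It lay wholly past the 1.5-fold limit in both at 9. For most members the counts at the summit therefore cannot show that the drop was 1.5-fold or more. Those 9 include the 3 members with an untreated density of at least 5000, described below, whose E2 summits held at least 5829 tags. Whether these 3 are single-copy DNA was not tested. The median E2 summit held 43 tags, and the smallest 15.

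The limit cut through a continuous range of values. Just inside it were chr11:110218927-110220048 (ratios 0.666 and 0.544), chr9:94436598-94439782 (0.663 and 0.666) and chr2:170294944-170295975 (0.663 and 0.666). Just outside were chr2:37285983-37287060 (log2 -0.74 and -0.58, at the limit within the rounding of the deposited densities), chr17:35095988-35097292 (-0.59 and -0.58) and chr5:148746424-148747275 (-0.58 and -0.60). No step separates one set from the other.

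Which regions passed depended on the measure of density. With the average in place of the maximum density in the rule, 339 regions were chosen, and 143 of them were among the 289, which is 49.5% of the reported regions and 42.2% of the others. By average density 284 of the 289 (98.3%) had ratios below 1 in both comparisons, beside 29.5% of shared regions, with median log2 ratios of -0.69 and -0.73. Average and maximum density come from the same tags, so this is no independent support for the direction.

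Dex is the other hormone of the design, and its comparisons at these regions share all 4 libraries with the rule, so that they too are a description. The median log2 ratio of Dex over untreated was 0.05 over the E2-lower regions and -0.01 over all shared regions. For Dex+E2 over E2 it was 0.04 and -0.03. At 228 of 289 regions (78.9%) neither Dex ratio passed 1.5-fold, against 14595 of 20687 (70.6%). The 2 Dex ratios of a region differ by as much as its 2 E2 ratios do. The rule caps the latter from above only, and the lowest among members were 0.326 and 0.356. That range leaves no room for opposite Dex calls, so their absence among E2-lower regions is not a result.

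Both Dex comparisons were at least 1.5-fold higher at 23 E2-lower regions (7.96%, Wilson 95% interval 5.36 to 11.7), beside 753 shared regions (3.64%). At 12 of them both were at least 2-fold higher (4.15%, 2.39 to 7.12), beside 285 shared regions (1.38%). At these sites the relative density was higher with Dex and lower with E2. Taken singly, Dex over untreated was 1.5-fold higher at 34 E2-lower regions (11.8%) and at 14.4% of shared regions. Dex+E2 over E2 was so at 30 (10.4%) and at 6.80%. The rule favours high untreated and Dex libraries and low E2 and Dex+E2 ones, and it keeps both Dex ratios of a member close to each other. The larger joint share among the E2-lower regions was therefore not read as a result about them.

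The highest Dex ratio was at chr7:117849638-117852231, with 36.0 untreated, 76.6 with Dex, 7.6 with E2 and 42.9 with both hormones, which is 4.37-fold in Dex over untreated and 3.73-fold in Dex+E2 over E2. At chr14:12643579-12644572 the densities were 22.4, 45.8, 5.00 and 24.7 in that order (4.18-fold and 3.27-fold), and at chr9:51912786-51914472 they were 46.7, 83.8, 10.2 and 52.9 (3.68-fold and 3.43-fold). In each, Dex+E2 stood between Dex and untreated cells, at 2.33, 2.15 and 2.21 times the untreated relative density. E2 alone left these regions at 0.624, 0.657 and 0.645 of the untreated value.

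Of the 23 regions, 22 kept a relative density above untreated cells after Dex+E2, and the remaining one stood at 0.995. The median over the 23 was 1.22 times untreated after Dex+E2, 2.05 times after Dex and 0.607 times after E2. They include a pair of neighbours 2.71 kb apart, chr13:114340913-114342052 (80.6 untreated, 80.6 with Dex, 13.4 with E2 and 49.9 with both hormones) and chr13:114343580-114344799 (49.2, 54.9, 8.80 and 30.9). The pair had like ratios in all comparisons.

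Both Dex comparisons were at least 1.5-fold lower at 4 E2-lower regions (1.38%), close to the 230 shared regions (1.11%) that passed. The lowest after co-treatment was chr3:83103286-83104885, with 49.0 untreated, 12.98 with Dex, 9.20 with E2 and 6.35 with both hormones, so that Dex+E2 stood at 0.253 of untreated. The region chr11:107018105-107019368 had 44.6, 12.5, 9.0 and 6.35 (0.278), chr12:3188627-3189422 had 37.5, 9.31, 7.40 and 6.35 (0.331), and chr6:72058669-72060041 had 54.6, 15.4, 11.4 and 10.4 (0.373). At these 4 each hormone alone went with a drop, and the library with both was the lowest. The limits on both E2 and both Dex ratios impose this order.

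The lowest ratio of Dex over untreated was at chr17:64027112-64028358, at 0.438, with 133.9 untreated, 28.7 with Dex, 16.2 with E2 and 18.4 with both hormones. Dex+E2 over E2 was 0.750 there, which did not pass the limit. At chr13:111713802-111714975, described above, Dex over untreated was 0.532 and Dex+E2 over E2 was 0.885. In both, Dex over untreated was the lower of the Dex ratios, and the difference was not tested.

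**Figure D3:**
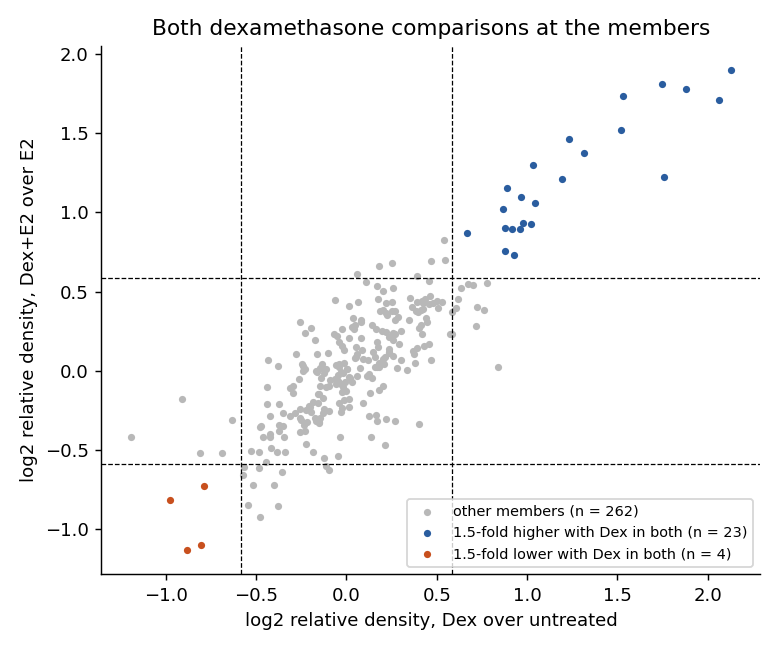
Each point is 1 of the 289 members, placed by its log2 ratio of relative density in Dex over untreated (x axis) and in Dex+E2 over E2 (y axis); dashed lines mark 1.5-fold, blue the 23 members past it upward in both and orange the 4 past it downward. The points follow the diagonal. The rule caps both E2 ratios and those of members span a limited range, which keeps the 2 Dex ratios of a member close.

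Co-treatment was compared with untreated cells last. This ratio is built from the same 4 relative densities as the rule, so an excess of low values among the members is set by the choice and nothing is read from it. The relative density after Dex+E2 was at least 1.5-fold below untreated at 190 members (65.7%), where 9.27% of shared regions passed, and at least 2-fold below at 66 (22.8%), where 1.58% passed. It was above untreated at 22 members (7.61%) and at 50.8% of shared regions. By order of the 4 relative densities, 116 members ran from Dex through untreated and Dex+E2 down to E2, and 97 from untreated through Dex and E2 down to Dex+E2. The lowest library was E2 at 167 members and Dex+E2 at 122, and the rule allows no other, while over all shared regions they were lowest at 4972 and 4958 of 20687.

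On the deposited scale, before division by the medians, untreated cells were highest at 278 members and E2 was lowest at 274. Over all shared regions the corresponding numbers were 18637 and 16507 of 20687. The densities of the whole shared set were lower in the hormone libraries, so the deposited scale does not single these regions out. With the limit applied to deposited densities, 1120 regions passed, of which 214 were among the 289.

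The width and place of the regions were not terms of the rule, but the extent of a listed stretch depends on the density in that list, so width is not independent of the rule. The width values are therefore a description. The median merged width was 1341 bp over the E2-lower regions (704 to 6491) and 1010 bp over all shared regions. It was 847 bp over the 681 regions higher with E2 in both comparisons and 969 bp over the 230 regions lower with Dex. Among the narrowest decile of shared regions, up to 689 bp, 0 of 2083 were E2-lower (Wilson upper limit 0.184%), and among the widest decile, from 1793 bp, 57 of 2069 were (2.76%, 2.13 to 3.55). The 2-fold members had a lower median of 993.5 bp over 6 regions, though chr10:16264465-16266245 among them was 1781 bp wide.

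Width and the E2 ratio moved together over all shared regions, members or not. The median log2 ratio of E2 over untreated fell from 0.59 in the narrowest decile to -0.18 in the widest, and that of Dex+E2 over Dex was 0.02 and -0.15. When each ratio was set against the median of its own decile by width, 201 regions passed, 148 of them among the 289, and their median width was 1034 bp. Chosen in that way, regions lower with E2 were close in width to the 1010 bp of all shared regions. That setting takes out the shift with width before regions are chosen, so the like width is not read as a result.

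**Figure D4:**
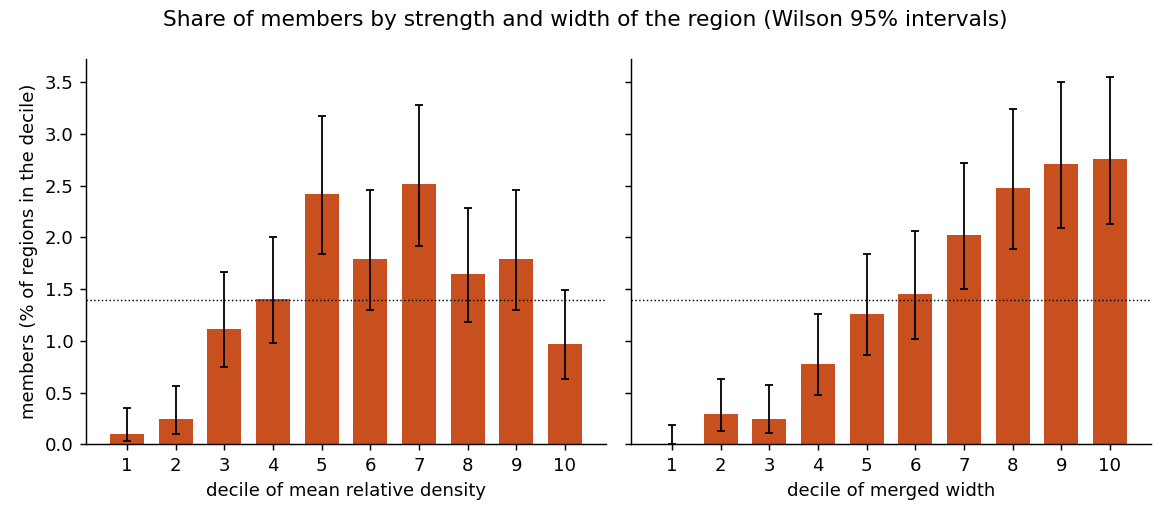
Share of shared regions that are members (y axis, %) in each decile of geometric mean relative density (left) and of merged width (right); bars start at 0, whiskers are Wilson 95% intervals and the dotted line is the 1.40% of all shared regions. The share rises with width from 0 to 2.76% and is highest, at 2.51%, in the seventh decile of density.

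Strength, taken from the densities that also chose the members, is given as a description. The weakest decile by geometric mean relative density held 2 of 2069, the seventh decile 52 (2.51%) and the strongest 20 (0.967%). An untreated density under 20 was found at 1 member and at 28.2% of shared regions. Between 20 and 40 lay 124 members (42.9%) and 36.6% of shared regions, and between 40 and 80 lay 123 (42.6%) and 24.3%. A weak region that fell further could leave the E2 list and with it the shared set. Strength and the E2 ratio also moved together over all shared regions. The median log2 ratio of E2 over untreated fell from 0.68 in the weakest decile to -0.15 in the strongest. That of Dex+E2 over Dex was -0.07 and 0.02. In E2 over untreated the limit thus lay further below the typical ratio of weak regions. With medians by decile of density 272 regions passed, 199 of them among the E2-lower regions. The part of list drop-out or of this shift in the low numbers at the weak end was not tested.

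The listed stretch of a member was also narrower with E2. Its median width was 1278 bp in the untreated list, 1123 bp after Dex, 666 bp after E2 and 905 bp after Dex+E2. Over all shared regions it was 960, 790, 635 and 747 bp. The median ratio of listed widths was 0.559 for E2 over untreated and 0.834 for Dex+E2 over Dex among members, and 0.689 and 0.960 among all shared regions. The E2 list broke 40 members (13.8%) into more than 1 piece, against 1465 of all shared regions (7.08%), and the Dex+E2 list also broke 40, against 8.63%. The Dex list broke 22 members (7.61%, against 6.93%) and the untreated list 3 (1.04%, against 1.95%). Width in a list depends on the density in that list, so these values are not independent of the choice.

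The densest regions of the series were partly E2-lower. The top region by untreated density, chr13:85266243-85267370, had 15878 untreated, 7501 with Dex, 3270 with E2 and 3413 with both hormones (ratios 0.608 and 0.433). The next, chr12:98299489-98300268, had 10256, 4687, 2263 and 2221 (0.651 and 0.451), and chr1:24619396-24620156 had 5729, 2725, 1166 and 1322 (0.600 and 0.462). Each of these 3 held at least 5829 tags at its summit in the E2 library, where the median member had 43.

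All 6 shared regions with an untreated density of at least 5000 were below 1 in both comparisons, with E2 over untreated between 0.600 and 0.755 and Dex+E2 over Dex between 0.433 and 0.578. The 3 that were not members missed the limit in E2 over untreated. After these the densest members were chr10:84488666-84489430 (616 untreated, 271 with Dex, 118 with E2 and 145 with both hormones) and chr1:122653178-122655972 (233, 113, 49.8 and 77.8). Whether the 6 very dense stretches are single-copy DNA was not tested here, so their densities may not measure how open 1 locus was. Without the 3 of them the members number 286.

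Members lay on all 20 chromosomes of the lists. Their share of the shared regions ran from 0.697% on chromosome 4 (9 of 1291, 0.367 to 1.32) to 2.23% on chromosome 13 (21 of 941, 1.46 to 3.39). Chromosome 3 held the most, 23 of 1079. The intervals of most chromosomes include 1.40%, those of chromosomes 3, 4 and 13 do not, and with 20 chromosomes such departures were not tested.

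The median distance from one member to the next nearest was 2438 kb. Another member lay within 10 kb of 8 members (2.77%, 1.41 to 5.37), beside 159 of all shared regions (0.769%). These 8 form pairs, 2.71 to 8.1 kb apart, and each pair is counted from both sides. The interval takes them as independent, which they are not. Within 50 kb the shares were 6.57% and 3.06%, and within 100 kb 9.34% and 5.28%. Members thus had another member nearby more often than shared regions in general did, a difference that was not tested. Besides the pair on chromosome 13, the close pairs included chr3:19325876-19327026 and chr3:19328890-19330717, 3.35 kb apart, with E2 over untreated of 0.498 and 0.566. A run of 3 members lay on chromosome 3 around the third-ranked region: chr3:145310283-145316773, the widest member, with 95.1 untreated, 54.1 with Dex, 20.4 with E2 and 24.96 with both hormones, then chr3:145347730-145348749 itself, then chr3:145365023-145366709, with 31.1, 12.2, 6.4 and 7.94.

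Other shared regions near members leaned the same way. Of the 151 non-members whose nearest member lay within 10 kb, 69 (45.7%, 38.0 to 53.6) were below 1 in both E2 comparisons, against 5969 of all 20398 non-members (29.3%, 28.6 to 29.9). Their median log2 ratios were -0.09 for E2 over untreated and -0.18 for Dex+E2 over Dex. Up to 5 kb these medians were -0.04 and -0.20. From 10 to 25 kb the share was 32.5% (67 of 206, 26.5 to 39.2), and from 100 to 250 kb it was 30.6%. Several neighbours can lie around the same member, and the intervals take them as independent. The width and strength of these neighbours were not set against those of the other non-members.

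**Figure D5:**
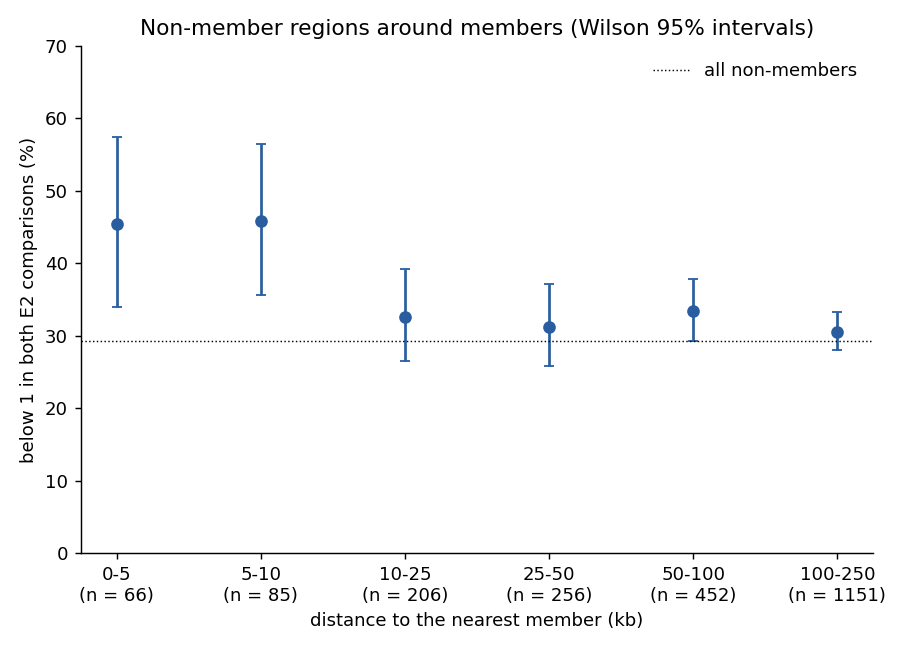
Share of non-member shared regions below 1 in both E2 comparisons (y axis, %) by distance to the nearest member (x axis, kb, with the number of regions). Whiskers are Wilson 95% intervals, which take the regions as independent, and the dotted line is the 29.3% of all non-members. The first 2 bins, up to 10 kb, lie at 45.5% and 45.9%, and the further ones between 30.6% and 33.4%.

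Regions that were listed in untreated and Dex cells and in neither E2 list, 4240 in all, are the nearest relatives of the E2-lower regions by pattern. A region of this kind lay within 10 kb of 29 members (10.0%, 7.08 to 14.0) and of 1897 of all shared regions (9.17%). Within 50 kb it was 90 members (31.1%, 26.1 to 36.7) and 29.5% of shared regions. The shares lay within counting error of each other.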

How the data were processed

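DNase-seq was done on 7438 cells in 4 conditions with 1 library each, grouped by the treatment in the labels. The authors deposited 1 list of hypersensitive regions per library. The submitters' processing notes name mm9 and CASAVA 1.8 without their role. No aligner or region caller is named. Each row holds, per the file headers, the maximum and average tag density of a region (signal values), a Z score and a p-value; the deposited score and p-value refer to the region in its own library and chose nothing here.

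Every deposited maximum density was a whole multiple of 1 step within 0.02, and the step (0.255 untreated, 0.245 Dex, 0.200 E2, 0.227 Dex+E2) was read as 1 tag. The total scaled to is unknown, so depth is too. The median listed summit held 32 to 37 tags. List sizes differed, with 65879 regions untreated, 51251 with Dex, 35496 with E2 and 50061 with both hormones. They covered 45.4, 31.7, 19.8 and 29.9 Mb in that order.

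Overlapping regions, or regions that share an end position, were joined, and the highest value per library was kept. Widths count both end positions. Intervals on ratios are exact (Clopper-Pearson on the 2 tag counts) and those on shares are Wilson, at 95%; tags may not be independent molecules. No treatment p-value was computed. The members, lists and named regions (all 2-fold members, the 20 leading, 3 on each side of the limit, the 5 densest, 3 at each Dex extreme) were chosen with earlier results of these data known; other named regions were chosen after their values were seen. Promoter shares, motifs and gene lists that were planned were not analysed, for lack of an mm9 reference. The rule was tested on simulated data with planted drops of 2-fold or more and no shift with strength or width. Smaller drops, which most members had, were not planted, so nothing is read from it for them. Scripts ran in Python 3.11.15 with pandas 2.3.3 and SciPy 1.17.1 on NumPy 2.4.6, with plots by Matplotlib 3.10.9.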

Additional observations from a re-analysis of the deposited data

How the results depend on the processing

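Counts of E2-lower regions stayed within 1.5 times 289 with average densities (339), with medians taken without regions that kept 0.8 or more of their untreated density under each treatment (228), with regions within 150 bp joined (316), on autosomes (282), with at least 40 untreated tags (286) and, chosen after seeing the data, with regions 1 bp apart joined (289) and with medians by decile of density (272) or width (201). A like count did not mean the same regions. Of the 289, 143 were chosen again with average densities, 199 with medians by density and 148 with medians by width. The other settings named so far kept between 228 and 289 of them. The count was 1120 with deposited densities, 1596 with a looser limit and 6 with a 2-fold limit. The median log2 ratio of Dex over untreated, 0.05, became -0.72 with deposited densities and -0.0722 with the 2-fold limit. That of Dex+E2 over E2, 0.04, became 0.32 with deposited densities, -0.0366 with the 2-fold limit, -0.0729 with medians by density and 0.00766 with medians by width. The median width, 1341 bp, became 1107 bp with average densities, 1158 bp with deposited densities, 993.5 bp with the 2-fold limit, 1238 bp with medians by density and 1034 bp with medians by width. A changed limit or reference alters which regions enter; beyond that the cause was not tested. No paired analysis was possible because each condition has 1 library and no test was made, and for the same reason no library could be left out. The planned promoter and motif alternatives were not run. Summit counts limit each ratio: both intervals lay past the 1.5-fold limit at 9 of 289 regions. Among these are the 3 members with an untreated density of at least 5000.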
